A study of Mus musculus with 10 samples.

Results

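Transcripts of 10 genes that brake MAP kinase signalling were followed in mouse kidney after ischaemia-reperfusion injury. The genes were taken by symbol, and each of the 10 symbols matched a single row of the 55359 genes in the deposited table. They comprise the inducible nuclear phosphatases Dusp1, Dusp4 and Dusp5, the cytosolic ERK phosphatase Dusp6, the stress kinase phosphatases Dusp8 and Dusp10, the atypical phosphatase Dusp14, and the signalling inhibitors Spry2, Spry4 and Spred1. The IRI group (AKI in the sample titles) held 5 kidney libraries of male mice with 30 min of ischaemia and 24 h of reperfusion, and the sham group held 5 kidney libraries of male mice with sham surgery alone. Strain, age, diet and the time from sham surgery to sampling are not stated in the labels, and the series title concerns dietary methionine. Since no label ties each library to its own mouse, the p-values reflect library-to-library spread, which may be technical. Below, n counts libraries, and IRI or sham kidneys stands for the libraries of that group.

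MAP kinases (ERK, p38 and JNK) are active only while a threonine and a tyrosine in their activation loop carry phosphate. Dual-specificity phosphatases of the DUSP family remove both phosphates, and many of their genes are themselves transcribed in response to the kinases they silence, which closes a negative feedback loop. Sprouty proteins act further upstream, between receptor tyrosine kinases and RAS, and Spred proteins bring the RAS inactivator neurofibromin to the membrane. In the mouse kidney Sprouty proteins are known for restraining receptor tyrosine kinase signals during ureteric bud growth.

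Promoter windows from 250 bases before to 50 bases after the annotated start were available for 8 of the 10 genes (RefSeq, GRCm38.p6), all but Dusp4 and Spry4. Windows of Dusp5, Dusp1, Dusp8, Dusp6, Dusp14 and Spred1 hold motifs through which growth factor and stress signals are known to reach feedback genes. Of these, the windows of Dusp5, Dusp1, Dusp8 and Dusp6 are shown as examples. These windows lay at chr19:53528895-53529194 (+ strand), chr17:26508423-26508722 (- strand), chr7:142095235-142095534 (- strand) and chr10:99262981-99263280 (+ strand). Capitals mark CArG boxes (the binding motif of serum response factor) in Dusp5, cyclic AMP response elements (CRE) in Dusp1 and Dusp8, and an ETS core in Dusp6.
Dusp5: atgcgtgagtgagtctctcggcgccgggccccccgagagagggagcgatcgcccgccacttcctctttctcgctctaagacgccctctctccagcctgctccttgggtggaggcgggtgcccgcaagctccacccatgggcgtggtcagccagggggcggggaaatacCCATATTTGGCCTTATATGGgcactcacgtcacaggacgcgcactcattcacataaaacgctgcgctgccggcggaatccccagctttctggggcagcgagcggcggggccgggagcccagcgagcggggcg
Dusp1: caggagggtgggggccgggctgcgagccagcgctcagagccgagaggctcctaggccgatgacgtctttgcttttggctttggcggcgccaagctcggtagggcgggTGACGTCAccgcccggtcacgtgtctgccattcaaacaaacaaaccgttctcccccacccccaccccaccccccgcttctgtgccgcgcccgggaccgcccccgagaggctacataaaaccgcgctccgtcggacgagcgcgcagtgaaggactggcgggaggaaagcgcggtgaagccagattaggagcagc
Dusp8: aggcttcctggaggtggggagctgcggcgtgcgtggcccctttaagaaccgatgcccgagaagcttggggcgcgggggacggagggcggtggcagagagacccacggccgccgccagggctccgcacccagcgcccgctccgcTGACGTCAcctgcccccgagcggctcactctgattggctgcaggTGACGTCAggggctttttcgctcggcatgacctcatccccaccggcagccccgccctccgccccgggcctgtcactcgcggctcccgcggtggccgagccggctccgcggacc
Dusp6: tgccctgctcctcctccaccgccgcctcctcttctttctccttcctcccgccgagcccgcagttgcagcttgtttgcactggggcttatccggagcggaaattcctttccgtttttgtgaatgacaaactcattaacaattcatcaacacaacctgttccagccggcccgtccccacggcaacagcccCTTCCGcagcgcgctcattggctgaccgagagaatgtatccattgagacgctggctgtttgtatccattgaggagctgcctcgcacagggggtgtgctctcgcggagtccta

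Dusp5 held 2 CArG boxes end to end, at bases -82 to -73 and -72 to -63 from the start. Dusp1 held a CRE at -143 to -136, and Dusp8 held CREs at -107 to -100 and -63 to -56. The ETS core of Dusp6 lay at -62 to -57, and further ETS cores lay in the windows of Dusp14 (-28 to -23) and Spred1 (-17 to -12, and 8 to 13 bases past the start). Both strands were searched, with TGACGTCA for the CRE, CGGAAG for the ETS core and TGANTCA for AP-1, and these motifs do not overlap in the windows of the members. Of 32851 promoter windows of the same length, 1.63% held a CArG box (1 of 8 member windows), 1.79% a CRE (2 of 8), 16.9% an ETS core (3 of 8) and 7.81% an AP-1 motif (0 of 8). The windows of Dusp10 and Spry2 held none of these letters.

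**Figure D1:**
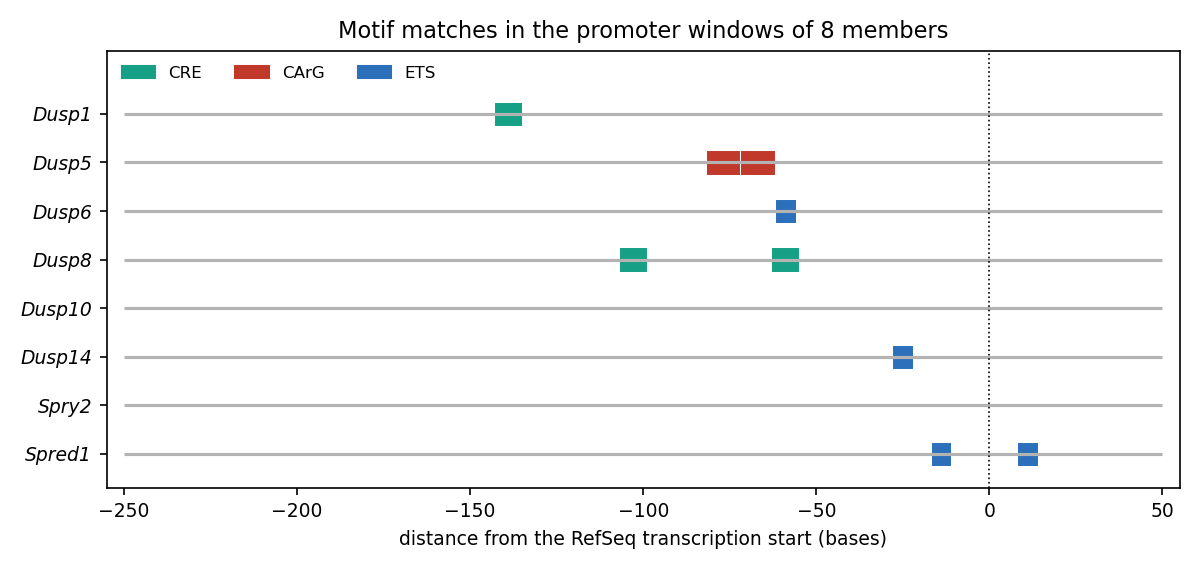
Positions of motif matches (coloured blocks) in the promoter windows of 8 members, as distance in bases from the RefSeq transcription start (x axis, dotted line at the start). The adjacent red blocks of Dusp5 are the CArG boxes at -82 to -63, and Dusp8 carries a pair of CREs.

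Library totals were 13147899 to 17307039 counts in IRI and 13199234 to 18603272 counts in sham libraries. IRI replicate 1 stood apart from the other libraries. It lay at 47.6 on the second principal component, against -18.6 to 6.13 for the other IRI libraries, and its mitochondrial rRNA share was 2.31%, where the remaining IRI libraries had 0.214% to 0.450% and sham libraries 0.230% to 0.267%. Kidney markers were present in both groups. Proximal tubule S1 and S2 markers summed to 134 to 857 FPKM in IRI and 1580 to 2200 FPKM in sham libraries, and 6 of 6 were called lower. All 5 injured tubule markers were called higher, with sums of 1740 to 2800 FPKM in IRI and 1.93 to 4.11 FPKM in sham libraries. At these sham sums most of them could not pass the filter on low values without the IRI libraries. With no filter 5 were called higher and 0 lower. All of these are bulk values, in which fewer cells of a type and less RNA per cell cannot be told apart. Fold changes below are log2 ratios of IRI over sham from edgeR, with TMM scaling factors, and a gene is called when its adjusted p is under 0.05. FPKM is scaled by library totals, under which log2 fold changes were larger by a median of 0.25 over all genes.

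Each of the members was higher in the injured kidneys. They were chosen with earlier results of these data known, which limits what their counts of calls can show beside those of all genes. All 10 members were called higher and 0 lower, and in all 10 every IRI library lay above every sham library in FPKM. TMM factors, used for the calls, were 0.998 to 1.14 in IRI and 0.895 to 0.941 in sham libraries. With FPKM divided by these factors, the groups of Dusp6 and Spry4 overlap. Of the 13324 genes tested, 34.5% were called higher, 32.4% were called lower, and 36.7% had every IRI FPKM above every sham FPKM. At least a 2-fold rise was called in 7 of the 10 members and in 11.9% of all genes tested. The median log2 fold change was 1.63 over the members and 0.05 over all genes tested. Dusp5, Dusp8 and Dusp10 were under 1 FPKM in each sham library and passed the filter on low values only through the IRI libraries, so these 3 had to be higher to be tested. The other 7 had at least 1 FPKM in every library.

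**Figure D2:**
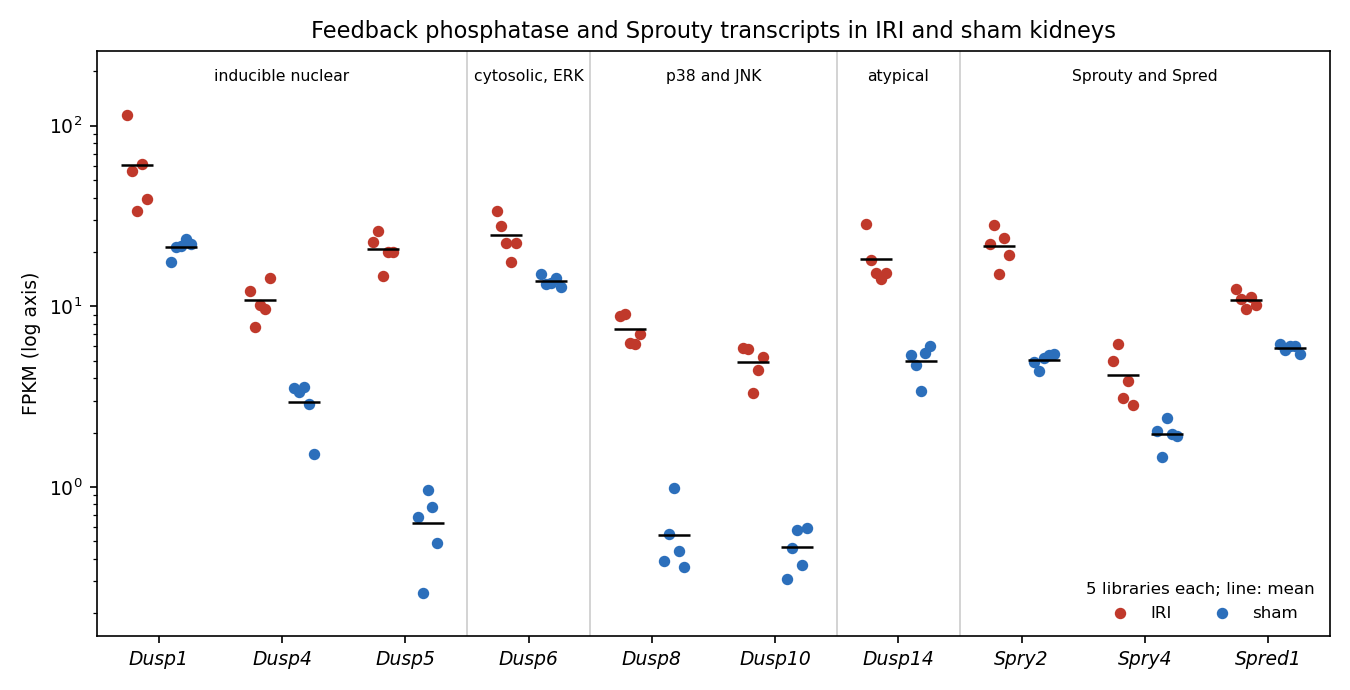
FPKM of the 10 members on a log axis, IRI libraries in red to the left of sham libraries in blue, 5 points per group with a black line at the mean. No red point overlaps the blue points of its gene, and Dusp5, Dusp8 and Dusp10 lie below 1 FPKM in every sham library.

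Among the inducible nuclear phosphatases, Dusp5 had the largest fold change of the 10 members. Dusp5, which dephosphorylates ERK and anchors it in the nucleus, had 22.7, 26.1, 14.8, 19.9 and 19.9 FPKM in IRI replicates 1 to 5, against 0.680, 0.260, 0.960, 0.770 and 0.490 FPKM in sham replicates 1 to 5. It was a moderately abundant transcript in every IRI library and under 1 FPKM in every sham library. The log2 fold change was 4.81 ± 0.27 (SE, edgeR adjusted p = 9.16e-08), and 0.338% of all genes tested had a larger one. The promoter window of Dusp5 carries the adjacent CArG boxes, whose part in the rise was not tested.

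Dusp1, an immediate early phosphatase that acts mainly on p38 and JNK, was the most abundant member per length in every library. Its level was 114, 56.4, 33.9, 61.1 and 39.3 FPKM in IRI replicates 1 to 5, against 17.7, 21.4, 21.7, 23.6 and 22.2 FPKM in sham replicates 1 to 5. The sham libraries were close together, while the IRI libraries spread widely with replicate 1 on top. Its log2 fold change was 1.29 ± 0.30 (adjusted p = 0.00236), or 0.88 ± 0.16 without IRI replicate 1 (adjusted p = 0.000568).

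Dusp4, a nuclear phosphatase of ERK, p38 and JNK, had 12.2, 7.66, 10.2, 9.68 and 14.4 FPKM in IRI replicates 1 to 5, against 3.51, 3.34, 3.58, 2.88 and 1.52 FPKM in sham replicates 1 to 5. The lowest IRI value was above the highest sham value. The log2 fold change was 1.62 ± 0.23 (adjusted p = 6.81e-05). IRI replicate 5, not replicate 1, was highest for this gene.

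The cytosolic ERK phosphatase Dusp6 had a small fold change, close to that of Spred1 (0.61 ± 0.17 and 0.65 ± 0.10), and without IRI replicate 4 it was the larger of the pair (0.72 and 0.65). It had 33.7, 27.7, 22.5, 17.5 and 22.3 FPKM in IRI replicates 1 to 5, against 15.0, 13.2, 13.5, 14.3 and 12.8 FPKM in sham replicates 1 to 5. The groups did not overlap in FPKM, but they overlap when FPKM is divided by the TMM factors. The sham level was the second highest of the members per length. The log2 fold change was 0.61 ± 0.17 (adjusted p = 0.00774), and 0.42 ± 0.12 without IRI replicate 1 (adjusted p = 0.00923). Larger fold changes were found in 22.5% of all genes tested.

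The stress kinase phosphatases had the next largest fold changes after Dusp5. Dusp8, which acts on JNK and p38, had 8.87, 9.04, 6.29, 6.20 and 7.03 FPKM in IRI replicates 1 to 5, against 0.390, 0.550, 0.980, 0.440 and 0.360 FPKM in sham replicates 1 to 5. All IRI values exceeded 6 FPKM and no sham value reached 1 FPKM. The log2 fold change was 3.54 ± 0.26 (adjusted p = 5.40e-07). Dusp10, also a phosphatase of p38 and JNK, had 5.84, 5.83, 3.32, 4.45 and 5.23 FPKM in IRI replicates 1 to 5, against 0.310, 0.460, 0.580, 0.370 and 0.590 FPKM in sham replicates 1 to 5, a log2 fold change of 3.15 ± 0.23 (adjusted p = 5.40e-07). With no filter on low values, where 19.3% of 30454 genes were called higher and 18.0% lower, the log2 fold changes of Dusp5, Dusp8 and Dusp10 were 4.83 ± 0.24, 3.56 ± 0.23 and 3.17 ± 0.23.

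Dusp14, a small atypical phosphatase that lacks the kinase-docking domain of the classical family, had 28.5, 18.1, 15.3, 14.2 and 15.3 FPKM in IRI replicates 1 to 5, against 5.40, 4.73, 3.38, 5.49 and 6.01 FPKM in sham replicates 1 to 5. IRI replicate 1 was well above the other IRI libraries, which themselves lay far above sham. The log2 fold change was 1.64 ± 0.24 (adjusted p = 7.58e-05), and 1.37 ± 0.16 without IRI replicate 1 (adjusted p = 1.55e-05).

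Of the 3 members that act above the kinases, Spry2 had the largest fold change. Spry2 had 22.1, 28.0, 15.1, 24.0 and 19.1 FPKM in IRI replicates 1 to 5, against 4.93, 4.38, 5.14, 5.34 and 5.43 FPKM in sham replicates 1 to 5. The log2 fold change was 1.85 ± 0.16 (adjusted p = 1.22e-06). Its paralogue Spry4 was the least abundant of the inhibitors, with 4.98, 6.16, 3.11, 3.86 and 2.84 FPKM in IRI replicates 1 to 5, against 2.04, 1.47, 2.40, 1.96 and 1.91 FPKM in sham replicates 1 to 5. The groups came close to each other in FPKM, and they overlap when FPKM is divided by the TMM factors. The log2 fold change was 0.86 ± 0.22 (adjusted p = 0.00476). Spred1, the neurofibromin partner, was tightly grouped, with 12.4, 11.0, 9.61, 11.3 and 10.1 FPKM in IRI replicates 1 to 5, against 6.15, 5.70, 5.99, 6.02 and 5.45 FPKM in sham replicates 1 to 5. Its log2 fold change was small but had the smallest error of the members (0.65 ± 0.10, adjusted p = 0.000115).

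**Figure D3:**
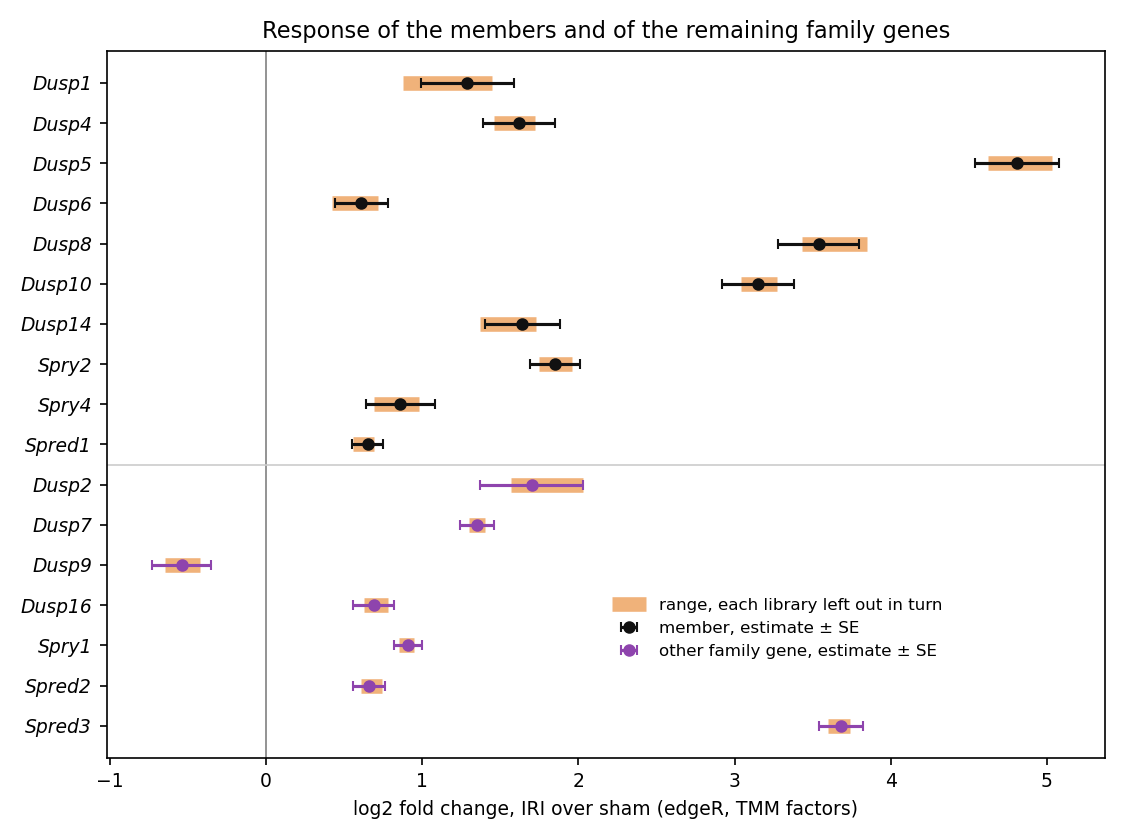
Log2 fold change of IRI over sham (x axis, edgeR with TMM factors) with its standard error, for the 10 members (black) and 7 other genes of the same families (purple). Orange bands give the range when each library is left out in turn. Members run from 0.61 for Dusp6 to 4.81 for Dusp5, and no band of a member reaches 0.

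The members did not rise in proportion to each other. The log2 ratio of members within each library was compared between groups for 6 pairs, with a two-sided exact permutation test that enumerated all assignments of libraries to groups (smallest possible p = 0.00794) and Benjamini-Hochberg adjustment over the 6 pairs. Among ERK phosphatases, nuclear Dusp5 over cytosolic Dusp6 averaged -0.25 ± 0.34 in IRI and -4.55 ± 0.68 in sham libraries (SD, n = 5 each), a difference of 4.30 (exact permutation p = 0.00794, adjusted 0.0119). These ratios use no filter on low values, but Dusp5 is a member whose test across genes rested on its high IRI level, and its sham ratios rest on low counts. The atypical Dusp14 also gained on Dusp6, with -0.45 ± 0.17 in IRI and -1.48 ± 0.33 in sham libraries, a difference of 1.03 (exact permutation p = 0.00794, adjusted 0.0119, n = 5 each). In these pairs no IRI library overlapped a sham library.

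Among the upstream inhibitors that are members, Spry2 gained on Spry4 and Spred1. The log2 ratio of Spry4 over Spry2 was -2.40 ± 0.28 in IRI and -1.38 ± 0.19 in sham libraries, a difference of -1.02 (exact permutation p = 0.00794, adjusted 0.0119, n = 5 each). Spred1 over Spry2 was -0.97 ± 0.27 in IRI and 0.22 ± 0.14 in sham libraries, a difference of -1.19 (exact permutation p = 0.00794, adjusted 0.0119, n = 5 each), so that the order of their levels per length was turned round in every IRI library. The other pairs did not pass the threshold. Dusp4 over Dusp1 differed by 0.51 (-2.39 ± 0.76 in IRI and -2.90 ± 0.59 in sham libraries, exact permutation p = 0.262, adjusted 0.262). Dusp10 over Dusp8 differed by -0.46 (-0.61 ± 0.19 in IRI and -0.15 ± 0.53 in sham libraries, exact permutation p = 0.0714, adjusted 0.0857). It passed the threshold without sham replicate 3 (-0.61, adjusted exact permutation p = 0.0190). Both genes passed the filter only through the IRI libraries. Their sham ratios rest on low counts, 14 to 30 of Dusp10 and 28 to 78 of Dusp8.

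Summed over the 10 members, the level was 134 to 265 FPKM in IRI and 55.5 to 61.1 FPKM in sham libraries. Dusp1 held 31.6% ± 7.61 of this sum in IRI and 37.0% ± 3.13 in sham libraries (SD, n = 5 each), ranges that overlapped. The share of Dusp6 was 13.6% ± 2.42 in IRI and 24.0% ± 1.63 in sham libraries, and that of Spred1 was 6.10% ± 0.974 in IRI and 10.2% ± 0.519 in sham libraries, with no overlap for either. In the other direction, Dusp5 held 11.5% ± 1.86 in IRI and 1.09% ± 0.446 in sham libraries. Dusp8 held 4.15% ± 0.632 in IRI and 0.944% ± 0.435 in sham libraries, and Dusp10 held 2.72% ± 0.454 in IRI and 0.804% ± 0.221 in sham libraries. These shares are descriptions and were given no test.

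**Figure D4:**
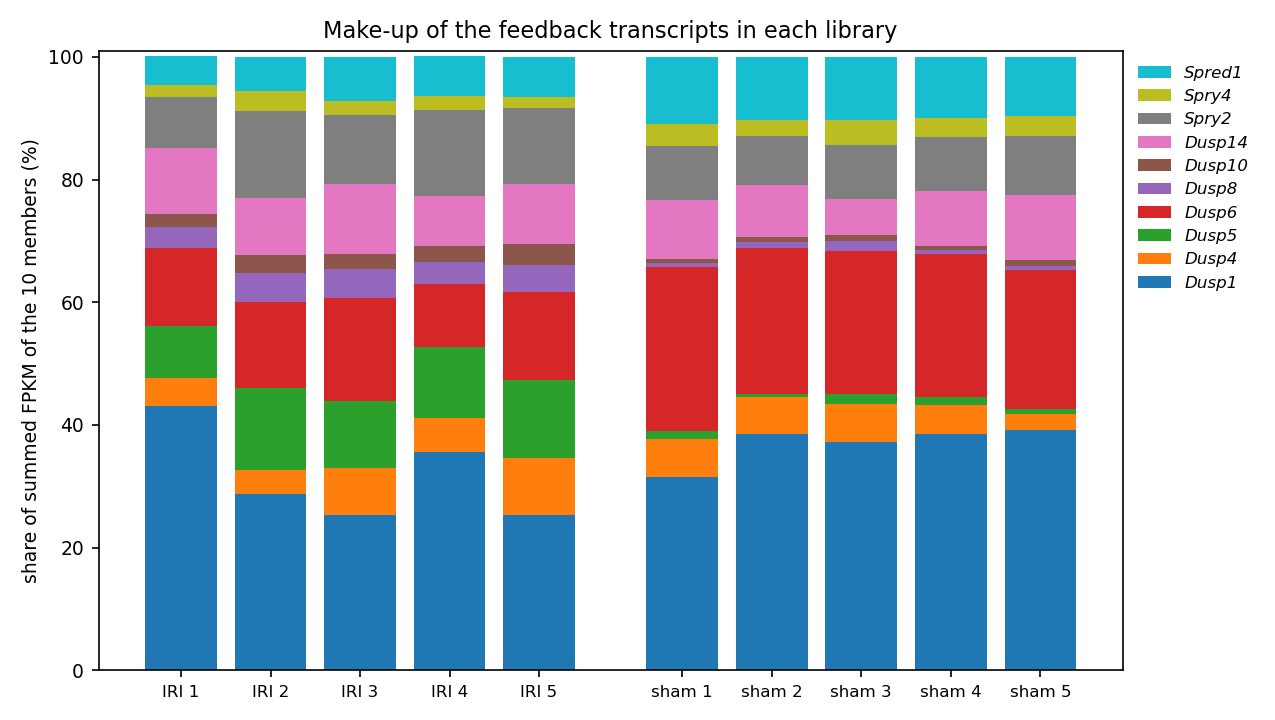
Share of each member in the summed FPKM of the 10 members (y axis, percent), 1 bar per library, IRI bars left of sham bars. Dusp5 (green) takes 8.57% to 13.3% of the IRI bars and 0.469% to 1.65% of the sham bars, while Dusp6 (red) takes 10.2% to 16.8% of the IRI bars and 22.6% to 26.8% of the sham bars.

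Within the IRI group the members did not share an order of libraries. IRI replicate 1 was highest for 5 members (Dusp1, Dusp6, Dusp10, Dusp14 and Spred1), replicate 2 for 4 (Dusp5, Dusp8, Spry2 and Spry4) and replicate 5 for Dusp4. IRI replicate 3 was lowest for 5 members and highest for 0. Without IRI replicate 1, all 10 members were still called higher, with log2 fold changes of 0.42 for Dusp6 to 4.73 for Dusp5. Leukocytes also express Dusp1. All 4 tested neutrophil markers of 8 fixed were called higher (with no filter, 8 higher and 0 lower of the 8). The 8 summed to 107, 48.2, 20.1, 36.0 and 73.7 FPKM in IRI replicates 1 to 5 and to 0.940 to 3.32 FPKM in sham libraries. With a sum of 0.940 FPKM in sham replicate 4, none of them could pass the filter through sham libraries alone. IRI replicates 1 and 3 were the highest and the lowest for these markers as for Dusp1. The order between them differed, with IRI replicate 5 next highest for the markers and IRI replicate 4 next highest for Dusp1. Of 8 monocyte and macrophage markers 4 were tested, 2 were called higher and 1 lower (with no filter, 2 higher and 3 lower of the 8), and the 8 summed to 67.3 to 86.6 FPKM in IRI and 25.2 to 38.7 FPKM in sham libraries. No marker of these lists was at 0 counts over all libraries. Their part in the rise of the members was not tested.

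Of the 4 classical MAP kinase phosphatases outside the members, 3 were called higher and 1 lower. Dusp7, a cytosolic ERK phosphatase, averaged 13.7 ± 1.01 FPKM in IRI and 4.53 ± 0.568 FPKM in sham kidneys (SD, n = 5 each), a log2 fold change of 1.35 ± 0.11 (adjusted p = 7.48e-07). Its cytosolic relative Dusp6 had a log2 fold change of 0.61. Dusp16, a JNK phosphatase, rose by 0.69 ± 0.13 (adjusted p = 0.000491), and Dusp2, which passed the filter only through the IRI libraries, a nuclear phosphatase best known from lymphocytes and other leukocytes, rose by 1.70 ± 0.33 (adjusted p = 0.000655), with 1.73 ± 0.493 FPKM in IRI and 0.454 ± 0.217 FPKM in sham kidneys. With no filter its log2 fold change was 1.72 ± 0.34, and 3 of the 4 genes were called higher and 0 lower. The 6 T and NK markers summed to 0.17 to 0.57 FPKM in IRI and 1.4 to 2.43 FPKM in sham libraries. The 5 B and plasma markers summed to 1.01 to 1.35 FPKM in IRI and 2.09 to 3.62 FPKM in sham libraries. None of these markers passed the filter, and with no filter 3 and 4 of them were called lower and 0 higher. Which cells carried the rise of Dusp2 was not tested. Dusp9, another cytosolic ERK phosphatase, had 1.69 ± 0.366 FPKM in IRI and 2.07 ± 0.278 FPKM in sham kidneys (-0.54 ± 0.19, adjusted p = 0.0270), and it was not called without IRI replicate 3 or 4, without sham replicate 1, 3 or 4, or when scaled by library totals (-0.29, adjusted p = 0.193).

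All 3 further Sprouty and Spred genes in the table were called higher. Spred3 had the largest change among them, with 10.1, 7.64, 7.37, 9.47 and 10.6 FPKM in IRI replicates 1 to 5, against 0.520 to 0.640 FPKM over the 5 sham libraries (3.68 ± 0.14, adjusted p = 8.13e-09). It passed the filter only through the IRI libraries. Spry1 rose by 0.91 ± 0.09 and Spred2 by 0.66 ± 0.10, close in size to Spry4 and Spred1.

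The atypical phosphatases other than Dusp14 had more genes called lower than higher. Of 15 fixed symbols 12 were in the table and 9 were tested, of which 1 was called higher, 6 lower and 2 not called (median -0.68 on the log2 scale). With no filter, 11 were tested, of which 1 was called higher, 5 lower and 5 not called (median -0.24). Dusp3, an ERK and JNK phosphatase, was the higher one (1.05 ± 0.12, adjusted p = 1.06e-05). Dusp23 (-1.24 ± 0.14), Dusp28 (-0.68 ± 0.16) and Dusp11 (-0.23 ± 0.09) were called lower, the last an RNA phosphatase that was not called under library totals (0.02). Dusp11 also lost its call without IRI replicate 2, 4 or 5 or sham replicate 2 or 5 (adjusted p of 0.0627 to 0.114), with no filter (0.128) and with the replicate block. Dusp22 (0.23) and Dusp18 (-0.26) were not called.

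Other brakes on receptor, RAS and ERK signalling numbered 14 tested genes, of which 10 were called higher, 1 lower and 3 not called. Their median was 0.42 on the log2 scale, and with no filter 9 were called higher, 1 lower and 4 not called. The adaptor Dok4 (1.97 ± 0.19), the tyrosine phosphatase Ptpn12 (1.36 ± 0.14) and the RAS GTPase-activating protein Rasa1 (0.25 ± 0.10, adjusted p = 0.0422) were higher, Rasa1 losing its call without IRI replicate 1, 2, 4 or 5 or sham replicate 1, 2 or 5 (adjusted p of 0.0554 to 0.0983), and the RAF inhibitor Pebp1 was lower (-0.65 ± 0.16). Errfi1, a feedback inhibitor of the EGF receptor, was more abundant per length than any member, at 149 ± 57.9 FPKM in IRI and 174 ± 18.8 FPKM in sham kidneys, and was not called (-0.45, adjusted p = 0.137). Neither was Lrig1, which promotes degradation of EGF receptors (-0.15). Without IRI replicate 1, 4 genes of this list were called lower, among them Errfi1 (-0.70, adjusted p = 0.0114) and Lrig1 (-0.27, adjusted p = 0.0412).

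The kinases that the members act on came next. In the RAS and ERK cascade 9 of 17 genes were called higher, 3 lower and 5 not called (median 0.37). Ksr1, among those called higher, was under 1 FPKM in each sham library and passed the filter only through the IRI libraries. With no filter 9 of 17 were called higher, 2 lower and 6 not called. Mapk3, which encodes ERK1, rose by 0.43 ± 0.12 (adjusted p = 0.00794), and the adaptor gene Grb2 rose by 0.77 ± 0.09 (adjusted p = 1.10e-05). The lower genes were Map2k2 (-0.36), Araf (-0.38) and Map2k5 (-0.26), of which Araf and Map2k5 were named after their values were seen, and 0 genes were called lower under library totals. Map2k5 was not called without IRI replicate 1 or 5 or without sham replicate 2, 3, 4 or 5.

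In the p38 and JNK cascades 11 of 15 tested genes were called higher, 2 lower and 2 not called (median 0.64). With no filter 10 of 16 were called higher, 2 lower and 4 not called. Map3k1 (1.72 ± 0.16), Map2k3 (1.13 ± 0.15) and the p38 substrate Mapkapk2 (0.81 ± 0.12) were higher. The lower genes were Mapk14, which encodes p38 alpha, and Map2k6, a kinase that activates p38. Mapk14 averaged 21.2 ± 1.09 FPKM in IRI and 31.3 ± 1.78 FPKM in sham kidneys (-0.81 ± 0.09, adjusted p = 7.84e-06), and Map2k6, named after its value was seen, fell by 1.46 on the log2 scale. Map3k5 (-0.18) and Mapk9 (0.13) were not called.

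Genes that ERK signalling is known to induce had a median of 2.73. Of 17 tested, 14 were called higher, 2 lower and 1 not called, with Ier3 (2.73 ± 0.14), Junb (2.72 ± 0.44), Ier2 (2.60 ± 0.34) and Mcl1 (1.27 ± 0.10) the most abundant of those that rose and Ccnd1 (-0.07) the one not called. Etv4, Egr2 and Fosl1 were under 1 FPKM in each sham library and so entered the 17 only through the IRI libraries. With no filter 14 of 19 were called higher, 2 lower and 3 not called. The ETS factors of the PEA3 group, named after their values were seen, went in different directions. Etv4 had 6.64 ± 1.11 FPKM in IRI and 0.584 ± 0.203 FPKM in sham kidneys (3.23 ± 0.24, or 3.25 ± 0.23 with no filter), while Etv1 fell by 1.80 and Etv5 by 0.43 on the log2 scale. Etv5 was not called without IRI replicate 2, 4 or 5 or without sham replicate 1, 2 or 4, or under library totals (-0.17).

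Of 20 tested ligands and receptors upstream of RAS, 6 were called higher, 7 lower and 7 not called (median 0.00). This was close to all genes tested, with 34.5% called higher, 32.4% lower and a median of 0.05. With no filter, 8 of 23 were called higher, 6 lower and 9 not called. The ligands Areg, Ereg and Hgf, named after their values were seen, did not pass the filter. With no filter Areg (5.1 ± 0.65) and Ereg (3.82 ± 0.71) were called higher and Hgf (0.06 ± 0.34) was not called. The ligands Egf (-3.32 ± 0.46) and Fgf1 (-1.29 ± 0.14) were lower. The ligands Hbegf (1.42 ± 0.28), Tgfa (0.83 ± 0.24) and Fgf2 (0.71 ± 0.16), named here after their values were seen, were higher, as was the receptor Pdgfrb (1.08 ± 0.20). The receptor Met was called lower by a small margin (-0.25 ± 0.10, adjusted p = 0.0370) and lay at 0.00 under library totals. It lost its call without IRI replicate 2, 3 or 4 or sham replicate 1, 2, 3 or 4 (adjusted p of 0.0642 to 0.108), with no filter (0.120), with the stricter filter (0.0574) and with the replicate block (0.0969). Erbb2 (0.00) and Erbb3 (-0.25) were not called.

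**Figure D5:**
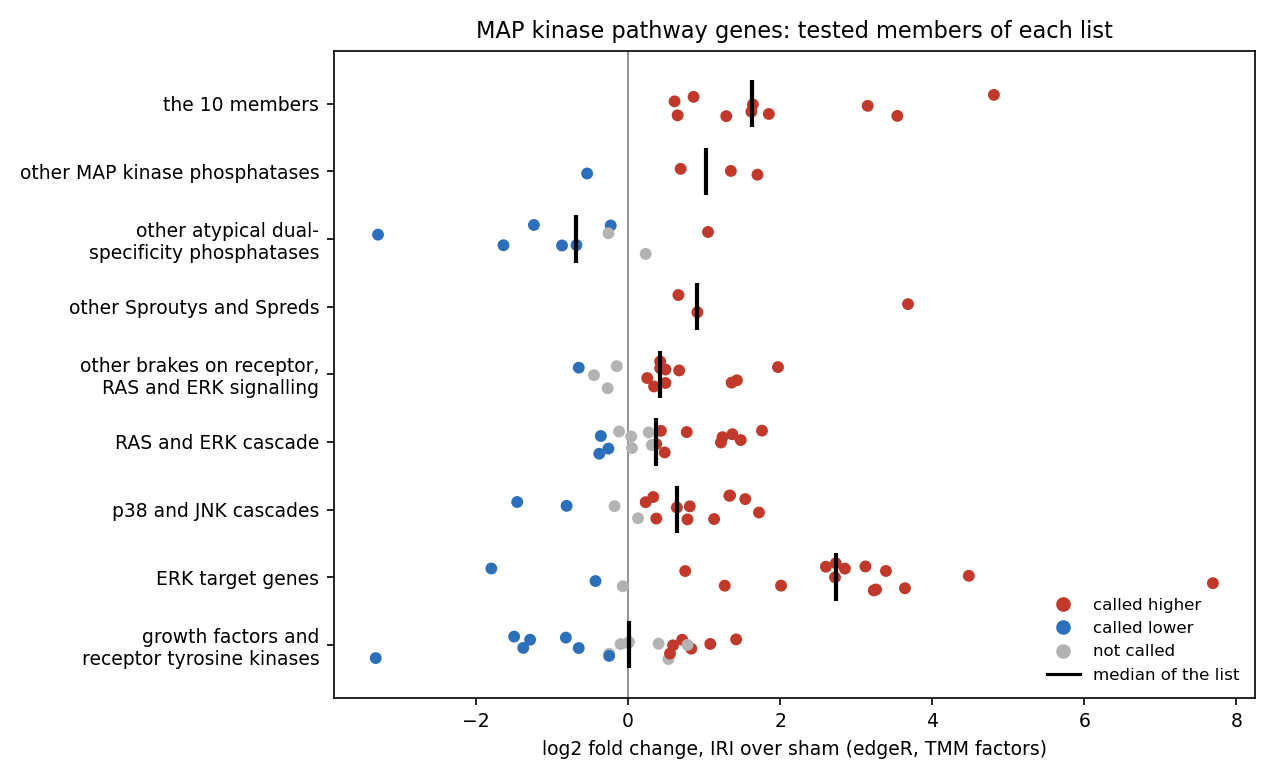
Log2 fold change of IRI over sham for each tested gene of the members and of 8 lists of MAP kinase pathway genes (x axis, edgeR with TMM factors), red for called higher, blue for called lower, grey for not called, with a black bar at each list's median. All 10 members lie right of 0, with a median of 1.63. Ligands and receptors are centred at 0.00, near the median of 0.05 over all genes tested.

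The genes with profiles nearest to each member were taken from 7243 genes with a mean of at least 5 FPKM, by the root mean square difference of log2 CPM over the 10 libraries after centring on sham. For Dusp1 the nearest was Hbegf, which encodes an EGF receptor ligand, at a distance of 0.16 log2 units, with 18.2 ± 8.78 FPKM in IRI and 5.82 ± 0.544 FPKM in sham kidneys. For Dusp14 it was the stress gene Gadd45a (0.25), for Dusp5 the aldo-keto reductase Akr1b8 (0.39) and the urokinase receptor gene Plaur (0.40), and for Spry2 the small nucleolar RNA host gene Snhg1 (0.13) and the stress response transcription factor gene Atf4 (0.13). Dusp8 was nearest to the heat shock gene Hspb1 (0.33) and Dusp10 to the claudin gene Cldn7 (0.23). For Dusp4 it was the kinase gene Frk (0.26), for Dusp6 the nucleolar gene Nop2 (0.13), for Spry4 Zfp703 (0.17) and for Spred1 the proteasome subunit gene Psmd11 (0.07).

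In the deposited coordinates (GRCm39) Dusp5 lies on chromosome 19 from 53517540 to 53530862, Dusp8 on chromosome 7 from 141633227 to 141649580, Dusp10 on chromosome 1 from 183745499 to 183807833 and Spry2 on chromosome 14 from 106129381 to 106134253. Dusp4 lies on chromosome 8 from 35274451 to 35287048, Dusp6 on chromosome 10 from 99099093 to 99103351, Dusp14 on chromosome 11 from 83938867 to 83960087 and Spred1 on chromosome 2 from 116951855 to 117012760. The Dusp1 row spans 56539 bases of chromosome 17, from 26724564 to 26781102, with an exonic length of 3311 bases. That span overlaps Ergic1 on the opposite strand, which had 1346 to 2090 counts in IRI and 1229 to 1766 counts in sham libraries. Dusp10 overlaps 1700056E22Rik on the opposite strand, which had 24 to 29 counts in IRI and 1 to 8 counts in sham libraries, against 175 to 289 counts of Dusp10 in IRI and 14 to 30 in sham. The strand setting of the counting is not stated in the sources at hand, and reads of such overlapping pairs cannot be told apart. The other genes overlapping a member had at most 7 counts in any library.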

How the data were processed

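For 10 libraries the authors deposited counts and FPKM per gene in a single table, beside exonic lengths. RNA was captured with oligo(dT) from 1 µg of total RNA, fragmented, randomly primed and read as pairs of 150 bases, per the labels' protocols. Per the submitters' processing notes, cutadapt 1.9.1, HISAT2 2.0.1, HTSeq 0.6.1 and GRCm39 were used, with no roles or settings given. The deposited FPKM could be rebuilt from count, exonic length and total (100% of values, tolerance 0.005 units or 0.1%). Symbols were found by identifier for 52083 genes.

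Genes with at least 1 FPKM in 5 libraries (13324) were tested on counts with edgeR 4.0.16 (R 4.3.3), by the quasi-likelihood test with TMM factors, group as the only term and Benjamini-Hochberg adjustment over all genes tested. Standard errors are the fold change over the root of F. The script was tested on simulated counts. Depth (library totals, given with the results) sets the counting precision. Alternatives were other scalings, filters, pseudocounts and thresholds, DESeq2 1.42.0, limma 3.58.1, a replicate block and each library left out. Text names the members, up to 4 called and 2 uncalled genes per list by mean FPKM, and the nearest profiles, of which the second is not always given. Names outside this rule are marked as chosen after values were seen. Some genes that the rule names are not reported here. The members and lists were chosen with earlier results of these data known. Promoter sequences are RefSeq's (GRCm38.p6), and no coordinate was converted between builds.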

Additional observations from a re-analysis of the deposited data

Results flagged for a closer look

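Groups of 5 libraries were checked for a library far from the others, by the gap to its nearest neighbour over the range of the group. Of 136 groups of values, 4 had such a library, and chance flags about 1 group in 20. Dusp14 had 28.54 FPKM in IRI replicate 1, against 14.21 to 18.11 FPKM in the other IRI libraries. Dusp7 had 3.57 FPKM in sham replicate 2, against 4.58 to 4.97 FPKM in the other sham libraries. Dusp2 had 0.83 FPKM in sham replicate 4, against 0.27 to 0.42 FPKM in the others. Pdgfrb had 9.25 FPKM in sham replicate 5, against 7.97 to 8.26 FPKM in the others. IRI replicate 1 also held the largest share of mitochondrial rRNA (2.31%), whose part in the value of Dusp14 was not tested.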

How the results depend on the processing

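All 10 members were called higher under each alternative and with each library left out, except that the stricter filter (at least 5 FPKM) tested 8 of them, without Dusp10 and Spry4. Their highest adjusted p was 0.0195, for Dusp6 without IRI replicate 2. That filter tested 7944 genes, with 3044 called higher and 2842 lower. Library totals gave 6322 higher and 3139 lower. The share of higher genes among those called was thus 66.8% under library totals and 51.6% under TMM.

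In the lists of few genes, small counts of calls moved, and the cause was not tested. The call lower among other MAP kinase phosphatases (Dusp9) was 0 under library totals, limma with either pseudocount, no filter, the stricter filter, the replicate block and an adjusted p under 0.01, and 0 to 1 with a library left out. Atypical phosphatases had 2 called higher under library totals and limma with either pseudocount. The stricter filter tested fewer genes and left 3 atypical phosphatases lower, 3 brakes higher, 1 p38 and JNK gene lower and 0 ERK targets lower. Brakes called lower were 1 to 4 with a library left out. Cascade genes called lower were 0 under library totals and limma with either pseudocount, and 1 at an adjusted p under 0.01. ERK targets called lower were 1 under library totals, limma with either pseudocount, the replicate block and an adjusted p under 0.01, and 1 to 2 with a library left out. Growth factors and receptors called higher were 10 under library totals.

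Signs turned for genes near 0, and the cause was not tested. Under library totals, limma with a pseudocount of 1 and limma with 0.1, Dusp11 was at 0.02, 0.02 and 0.02, Lrig1 at 0.10, 0.07 and 0.09, Map3k5 at 0.06, 0.04 and 0.05, Ccnd1 at 0.19, 0.14 and 0.14, Met at 0.00 in each, and Erbb2 at 0.25, 0.23 and 0.24. Erbb2 was at 0.02 with no filter and 0.03 with the stricter filter. With a library left out, Ccnd1 ran from -0.24 to 0.05 and Erbb2 from -0.04 to 0.05. The ratio of Dusp10 over Dusp8 differed by -0.61 to -0.24 with a library left out.

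No label states that equal replicate numbers mark a pair. Over all genes tested, deviations from the group mean correlated at -0.247 to 0.0567 between libraries of equal number. Of the 5 IRI libraries, 0 correlated best with their own number. A pairing with a small effect could be missed by this check. With the replicate block all 10 members were called higher, as were 4221 genes in all, with 4097 lower. With sign-flip tests by replicate number, in which the differences are the same by construction and no p under 0.0625 is possible, all 4 calls among the ratios were lost. The differences were 4.30 for Dusp5 over Dusp6, 1.03 for Dusp14 over Dusp6, -1.02 for Spry4 over Spry2 and -1.19 for Spred1 over Spry2, each with an adjusted exact p of 0.0750.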

Other observations

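The largest fall among the phosphatases of the fixed lists was that of Dusp15, an atypical dual-specificity phosphatase named here after its values were seen. It averaged 0.632 ± 0.205 FPKM in IRI and 5.22 ± 1.51 FPKM in sham kidneys (SD, n = 5 each), with every IRI library below every sham library and a log2 fold change of -3.29 ± 0.26 (edgeR adjusted p = 7.48e-07). It was under 1 FPKM in each IRI library and passed the filter on low values only through the sham libraries, and with no filter its log2 fold change was -3.26 ± 0.23. It kept its direction and its call under each alternative in which it was tested.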
